A study of Homo sapiens with 12 samples.

Results

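The comparison described here is that of the 2 control reagents of a JAK2 knockdown experiment with each other. HEL, a human erythroleukaemia cell line, received lentiviral constructs in a puromycin-selectable pLKO vector, and all 12 arrays come from this 1 line. Its 6 control arrays, of the 12 in the series, were taken by their labelled treatment: 3 from cells given a short hairpin RNA (shRNA) against luciferase (Luc), a reporter enzyme with no human counterpart, and 3 from cells given a GFP control. The labels name the latter both a control shRNA and a vector control, so it is not settled here whether those cells expressed a hairpin. The remaining 6 arrays, 3 each, come from cells given 1 of 2 hairpins against JAK2, Jak2-9 and Jak2-10. All 4 groups share the JAK2V617F mutation, which the series describes as homozygous in HEL. Hence neither control group is free of mutant JAK2, of virus or of the puromycin-selectable vector, and an untreated HEL sample was not analysed here. Replicates carry numbers only, with no statement that they were cultured or transduced separately. The p-values therefore measure the spread between arrays within groups, part of which may be technical. In the main fit that spread is shared by all 4 groups, the hairpin arrays included.

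A short hairpin RNA is transcribed in the nucleus, cut by Dicer, and loaded into an Argonaute protein, where its guide strand pairs with target transcripts. A hairpin against luciferase or GFP has no intended target in a human cell, but it occupies the same machinery, and its seed can pair with unintended transcripts. Double-stranded RNA can also engage sensors such as RIG-I, MDA5 and PKR, which induce interferon-stimulated genes. Knockdown studies therefore often carry more than 1 control construct, and the contrast between them shows how much of the transcriptome moves with the choice of control alone.

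Levels below are log2 values of the deposited intensity at the brightest probe set of each gene, and differences are Luc minus GFP on that scale, so 0.58 is about 1.5-fold. The control arrays resembled each other closely. Across genes, Pearson's r was between 0.996 and 0.998 for the 9 pairs of a GFP with a Luc array and between 0.997 and 0.998 within each control group. The median gene had a standard deviation of 0.0972 among the GFP arrays and 0.0985 among the Luc arrays, against 0.171 for Jak2-9 and 0.124 for Jak2-10. Markers matched the erythroid and megakaryocytic character of HEL by their level. The median erythroid marker stood at percentile 94.3 of all genes and the median megakaryocytic marker at 63.3. Medians of the other cell types ran from 10.0 to 34.5. The 9 plant probe sets of the array, which have no human target, read 4.19 to 4.50 on average. Above all of them lay 6 of 6 measured erythroid and 5 of 5 megakaryocytic markers. That bar is low, as only 2275 of all 11940 genes (19.1%) were at or below the highest plant probe set. The fetal globin HBG1 was at 14.67 with GFP and 14.72 with Luc, the transcription factor GATA1 at 9.89 and 9.82, and the platelet integrin ITGA2B at 10.43 and 10.54. The T cell marker CD2 (8.94 and 8.95) and the stromal proteoglycan DCN (10.2 and 10.1) were also well above the plant probe sets, at like levels in both groups. The other markers of these and further cell types were dim, from 4.01 for LUM to 5.75 for CD79A. Above the plant probe sets were 3 of 4 monocyte, 2 of 4 granulocyte, 3 of 4 T cell, 2 of 2 B cell, 1 of 3 epithelial and 3 of 5 stromal markers, and none differed between the controls past the threshold.

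No gene passed the threshold between Luc and GFP. Of 11940 genes 0 (0%) had an adjusted p under 0.05 (limma over all 12 arrays, Benjamini-Hochberg), and 229 (1.92%) had an unadjusted p under 0.05, 121 higher (1.01%) and 108 lower (0.905%) in Luc. With each array centred on its median the latter split was 152 higher and 72 lower. A fit of the 6 control arrays alone also called 0 genes, with 595 (4.98%) at an unadjusted p under 0.05. Taken singly, 22406 probe sets gave 0 calls and 561 (2.5%) at an unadjusted p under 0.05. The count of 229 became 491 when Jak2-9 replicate 1, an array of neither control, was left out of the shared estimate of the spread. That of 121 became 78 without GFP replicate 3, and that of 108 became 64 without Luc replicate 2.

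The differences themselves were small. The median absolute difference was 0.07, the 95th percentile was 0.22, and the largest was 0.86, so 9 genes exceeded 1.5-fold and 0 exceeded 2-fold. All 9 were higher in Luc. The median 95% confidence interval extended 0.26 to either side, or 1.20-fold. For 11418 genes (95.6%) it lay within 1.5-fold in both directions, and for 11930 (99.9%) within 2-fold. The 10 genes whose interval reached 2-fold included POLQ, LRRC37A, LINC00680 and NEAT1, described below, and also ZNF236, a zinc finger protein, with a difference of -0.35 and an interval of -1.15 to 0.44. The intervals of these 10 genes include a 2-fold difference. In 428 genes (3.58%) every Luc array lay above every GFP array, and in 702 (5.88%) below, 1130 (9.46%) in all. With median centring the counts above and below were 602 and 486, and with quantile normalization 618 each.

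**Figure D1:**
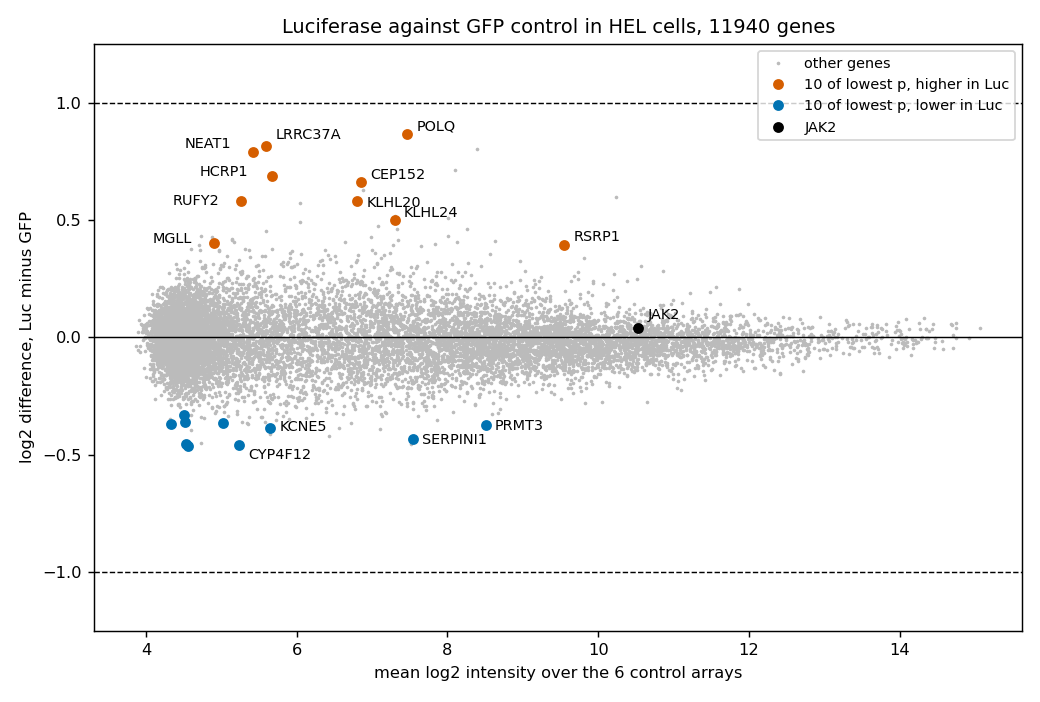
Log2 difference, Luc minus GFP, of 11940 genes (vertical axis) against the mean log2 intensity over the 6 control arrays (horizontal axis), with dashed lines at 2-fold. Coloured points are the 10 genes of lowest p in each direction; no gene lies beyond the dashed lines, and the largest difference is that of POLQ at 0.86.

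JAK2, the kinase targeted in the other groups, differed little between the controls. It was at 10.47, 10.40 and 10.68 with GFP and at 10.47, 10.63 and 10.56 with Luc, and the groups overlapped. The Luc mean was 103% of the GFP mean (95% interval 81.6% to 129%; difference 0.04 ± 0.16, SE, n = 3 each, limma adjusted p = 1.00). The second JAK2 probe set gave -0.01 ± 0.25. None of the signalling genes around JAK2 was called. JAK-STAT components, the receptors, kinases and transcription factors of the pathway, had 0 of 25 measured members called and a median of 0.03. STAT3, STAT5A and STAT5B were at -0.02, -0.04 and 0.13. JAK3, the lymphoid JAK kinase, had the highest value (0.32 ± 0.15, SE, unadjusted p = 0.048), with 5.88, 5.48 and 5.83 in GFP and 5.88, 6.01 and 6.26 in Luc. It was at 0.19 without GFP replicate 2, and its other probe sets gave -0.15 and -0.07. Of 20 JAK-STAT targets, which STAT transcription factors induce, 0 were called, with a median of -0.02 and values from -0.18 for DUSP5, a MAP kinase phosphatase, to 0.15 for SOCS3, a feedback inhibitor. The feedback inhibitors CISH and SOCS2 were at -0.03 and -0.04, and the kinase PIM1 at -0.05.

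The 10 genes of lowest p that were higher in Luc included 5 of the 9 genes over 1.5-fold. They were named by p, so that their values describe the top of the ranking; none passed the threshold. POLQ, a polymerase that joins broken DNA ends through short homologies, was at 7.54, 6.95 and 6.61 with GFP and at 7.79, 7.91 and 8.0 with Luc, with no overlap. Its difference was 0.86 ± 0.18 (SE), or 1.82-fold (95% interval 140% to 236% of GFP; limma adjusted p = 0.633). GFP replicate 1 was the GFP array nearest to Luc; without it the difference was 1.12 and passed (adjusted p = 0.0131). LRRC37A, of a leucine-rich repeat family with near-identical copies, was at 5.27, 5.14 and 5.15 with GFP and at 5.67, 6.08 and 6.26 with Luc. Which copy the probe set read is uncertain. All Luc arrays lay above all GFP arrays, by 0.81 ± 0.14 (adjusted p = 0.245), while a second probe set gave 0.17. It passed without Luc replicate 1, its lowest Luc array (0.98, adjusted p = 0.0318), and with array weights (0.86, adjusted p = 0.0179).

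KLHL20, a substrate adaptor of a cullin ubiquitin ligase, had narrow groups. It was at 6.56, 6.52 and 6.46 with GFP and at 7.11, 7.01 and 7.16 with Luc, a gap wider than the spread within either group. The difference was 0.58 ± 0.10 (SE; adjusted p = 0.245), and array weights called it (0.58, adjusted p = 0.0106). However, its other 3 probe sets gave 0.08, -0.18 and -0.15. CEP152, a scaffold of centriole duplication, was at 6.81, 6.32 and 6.45 with GFP and at 7.22, 7.36 and 6.98 with Luc (0.66 ± 0.13, adjusted p = 0.633). The groups did not overlap, and its second probe set gave 0.42. RSRP1, an arginine- and serine-rich nuclear protein, was at 9.41, 9.35 and 9.29 with GFP and at 9.73, 9.77 and 9.74 with Luc. Its groups were again tight and apart, by 0.39 ± 0.09, and another probe set gave 0.53. For KLHL24, a cullin adaptor that regulates keratins, the brightest probe set gave 0.50 ± 0.13 but the others 0.06 and 0.03. HCRP1 (0.69 ± 0.15), RUFY2, a RUN and FYVE domain protein of endosomes (0.58 ± 0.15), and MGLL, the lipase that hydrolyses monoacylglycerol (0.40 ± 0.11), had adjusted p-values of 1.00. However, a second HCRP1 probe set gave 0.14.

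NEAT1, the noncoding RNA scaffold of paraspeckles, completes the 10 genes of lowest p higher in Luc, and was the only 1 of the 10 whose arrays overlapped. It was at 5.02, 5.33 and 4.72 with GFP and at 5.31, 6.31 and 5.83 with Luc (0.79 ± 0.21, SE, limma adjusted p = 1.00). The remaining genes over 1.5-fold were LINC00680, a long noncoding RNA (0.80 ± 0.26), SCAF4, which binds the tail of RNA polymerase II (0.71 ± 0.19), RFX3, a transcription factor of ciliated cells (0.63 ± 0.18), and GOLGA8A, of a golgin family with near-identical copies (0.60 ± 0.24). SCAF4, RFX3 and GOLGA8A are named for their size of difference, with their values known. GFP replicate 1 was the highest GFP array, and thus the nearest to Luc, in 8 of the 10 genes, and in 36.6% of all genes. Among the array's control probe sets the Alu probe set, which reads a repeat common in introns and untranslated regions, also had GFP replicate 1 as its highest GFP array. It was at 14.64, 14.52 and 14.50 with GFP and at 14.63, 14.68 and 14.67 with Luc, a difference of 0.10 with overlapping groups. An exact two-sided permutation test gave p = 0.2, where 3 arrays against 3 cannot go below 0.1. Its part in the values of these genes was not tested.

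**Figure D2:**
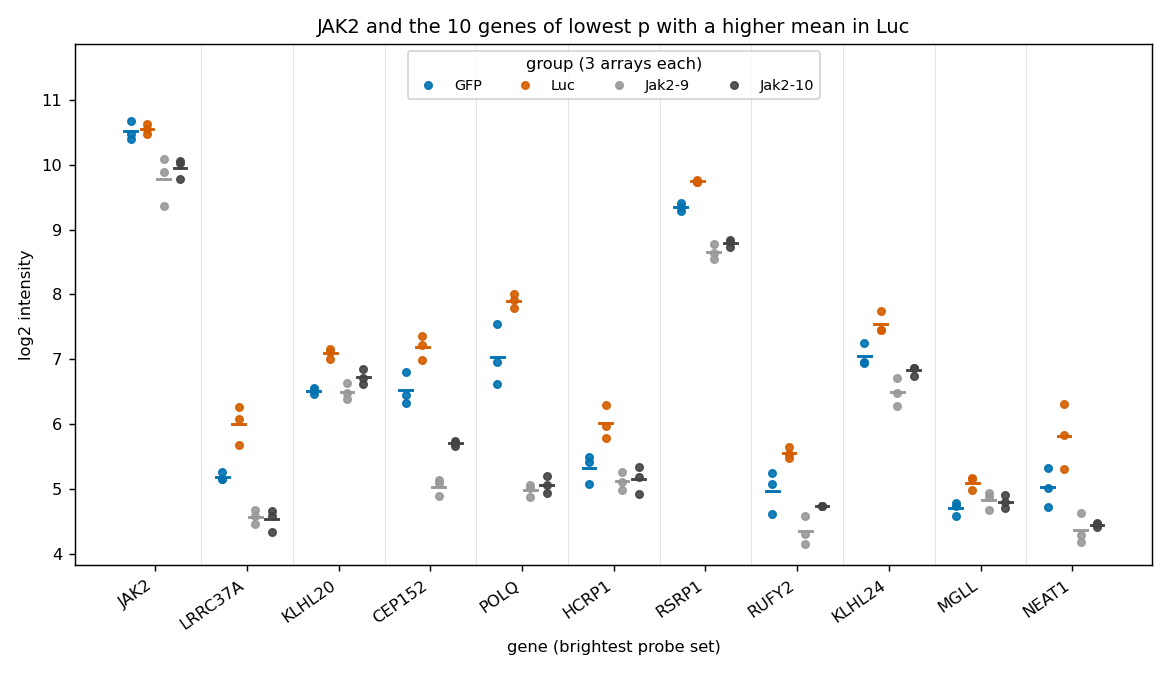
Log2 intensity of the 10 genes of lowest p that were higher in Luc than in GFP, on each of the 12 arrays (points, 3 per group) with group means (short lines). Luc points lie above GFP points in 9 of the 10 genes, NEAT1 being the exception, and all 6 hairpin points lie below all Luc points in all 10, as they do in 3.29% of all genes; the 10 were chosen for high Luc values.

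The 10 genes of lowest p that were lower in Luc differed less, and several were dim. Their differences ran from -0.33 to -0.46, the groups did not overlap in any of the 10, and each adjusted p was 1.00 (limma). Mean levels over the control arrays ran from 4.33, within the range of the plant probe sets, to 8.51. PRMT3, an arginine methyltransferase that modifies a ribosomal protein, was the brightest, at 8.77, 8.65 and 8.67 with GFP and at 8.25, 8.41 and 8.31 with Luc (-0.37 ± 0.11, SE). SERPINI1, the protease inhibitor neuroserpin, was at 7.85, 7.67 and 7.75 with GFP and at 7.52, 7.34 and 7.11 with Luc (-0.43 ± 0.12). Both are well above the plant probe sets. CYP4F12, a cytochrome P450 that hydroxylates fatty acids, had the lowest p of this direction, at 5.28, 5.54 and 5.57 with GFP and at 5.06, 4.93 and 5.03 with Luc (-0.46 ± 0.10). SUV39H2, a histone methyltransferase of heterochromatin, was at 5.02, 4.86 and 4.49 with GFP and at 4.48, 4.32 and 4.18 with Luc (-0.46 ± 0.15). Its lowest GFP array and highest Luc array were nearly equal. The others were the potassium channel subunit KCNE5 (-0.38), the muscle myosin light chain MYL1 (-0.37), the heat shock factor HSF4 (-0.37), the receptor GFRA4 (-0.36), the microtubule-binding protein NAV3 (-0.45) and the natural killer cell receptor KIR2DL2 (-0.33). NAV3 was at -0.27 and MYL1 at -0.24 without GFP replicate 3. NAV3's other probe sets gave -0.01 and 0.21, and KIR2DL2 belongs to a family of near-identical genes, so its value is uncertain as to the gene.

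**Figure D3:**
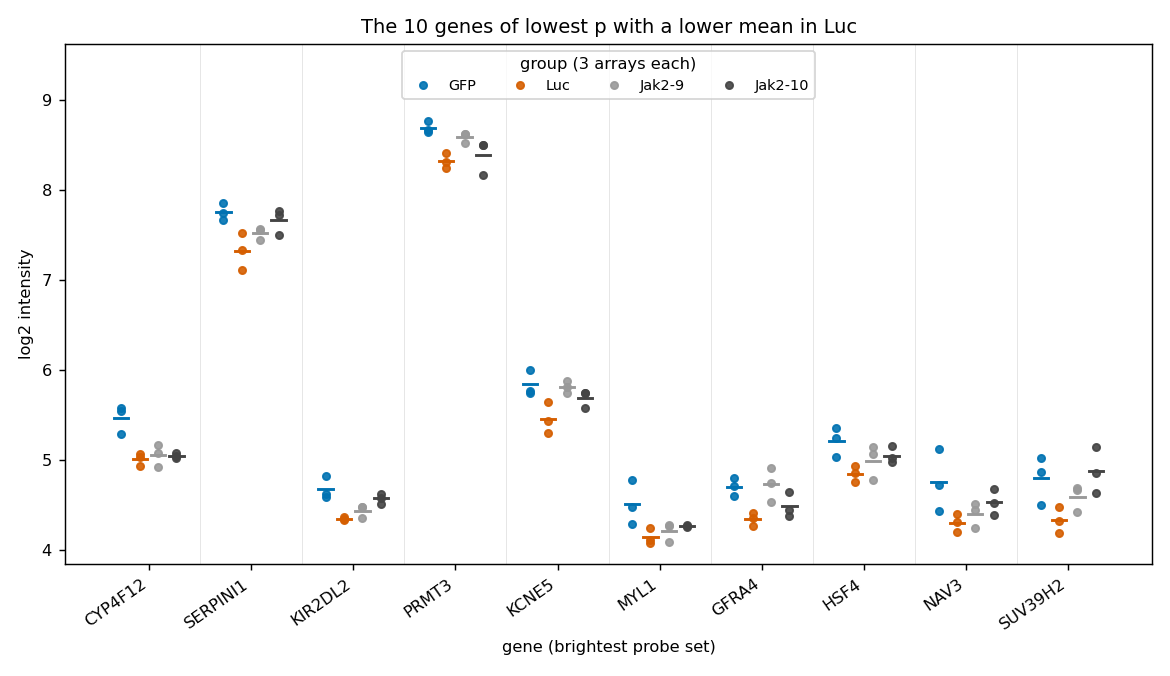
Log2 intensity of the 10 genes of lowest p that were lower in Luc than in GFP, on each of the 12 arrays (points, 3 per group) with group means (short lines). Luc points lie below GFP points in all 10, by at most 0.46 on average, and the brightest gene is PRMT3.

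Gene groups that could answer to a hairpin or a virus were examined next. No list named below had a called member (0 of 11940 genes passed), so each is described by its counts and median, beside an all-gene median of -0.01. The RNA interference machinery, 15 measured genes, had a median of -0.01 and values from -0.17 for TNRC6B, which binds Argonaute proteins and recruits deadenylases, to 0.10 for DGCR8, the partner of Drosha. Sensors of double-stranded RNA and DNA and their adaptors, 19 measured, had a median of 0.03, from -0.17 for IFIH1, which encodes MDA5, to 0.21 for TRAF6, a ubiquitin ligase downstream of several sensors. TRAF6 rested on Luc replicate 2, the highest of the 6 arrays at 6.36, and was at 0.04 without it. TNRC6B was at -0.10 without GFP replicate 2 and at -0.11 without Luc replicate 1. Interferon-stimulated genes had a median of -0.03 over 36 measured members, of which 16 lay above 0 and 20 below. For all 36 the 95% interval lay within 1.5-fold. IFIT5, an RNA-binding member of the group, was the highest at 0.18. GBP1, an interferon-induced GTPase, was the lowest, at 7.62, 7.59 and 7.84 with GFP and at 7.56, 7.28 and 7.39 with Luc. Its difference was -0.28 ± 0.11 (SE, unadjusted p = 0.025) with no overlap, and its second probe set gave -0.31. Retroviral restriction and silencing factors, 20 measured, ran from -0.22 for SUN2, a nuclear envelope protein, to 0.14 for DNMT3A, a DNA methyltransferase, with a median of -0.02. SUN2 was at -0.14 without Luc replicate 2.

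Lineage lists had no called member between the controls, and their medians ran from -0.01 to 0.06. Erythroid genes, 40 measured, had a median of 0.03 and ran from -0.10 for AHSP, the chaperone of alpha globin, to 0.19 for SLC25A37, the mitochondrial iron importer. Megakaryocyte and platelet genes, 31 measured, had a median of 0.06, with 22 above 0 and 9 below. Of all 11940 genes 5346 lay above 0 and 6594 below. ITGB3, the partner chain of ITGA2B, was at 0.32 with overlapping arrays. P2RX1, an ATP-gated channel of platelets, was at 6.57, 6.54 and 6.50 with GFP and at 6.72, 6.71 and 6.91 with Luc, with no overlap (0.24 ± 0.11, SE, unadjusted p = 0.039). Monocyte and granulocyte genes, lymphoid markers and epithelial and stromal markers had medians of 0.02, 0.01 and -0.01 over 29, 22 and 20 genes.

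Stress and response genes likewise had medians near 0. Those of p53 targets (21 genes), amino acid and ER stress genes (35), heat shock genes (27), oxidative stress genes (23) and NF-kB and cytokine genes (29) lay between -0.02 and -0.01. The member of lowest p was lower in Luc in each of these lists. BBC3, which encodes the proapoptotic protein PUMA, was at 5.97, 6.25 and 6.0 with GFP and at 5.69, 5.76 and 5.72 with Luc (-0.35 ± 0.14, SE, unadjusted p = 0.021). PSPH, the last enzyme of serine synthesis, was at 6.90, 7.07 and 6.74 with GFP and at 6.60, 6.56 and 6.44 with Luc (-0.37 ± 0.13, unadjusted p = 0.016). The chemokine CXCL3 was at -0.32 ± 0.12, or -0.20 without GFP replicate 2. In none of BBC3, PSPH and CXCL3 did the groups overlap. The oxidative stress gene ME1 was dim, at 4.46 with GFP and 4.23 with Luc, with overlapping arrays (-0.23 ± 0.10, limma unadjusted p = 0.0355). Its other probe sets gave 0.01 and -0.04. The heat shock gene DNAJB4 was at -0.20 ± 0.15 with overlapping arrays, or -0.25 to -0.10 on leaving out single arrays. In the other direction VEGFA, the angiogenic growth factor, was the highest of the amino acid and ER stress list at 0.33 with overlapping arrays, or 0.19 without GFP replicate 3. At VEGFA's other probe sets the difference was 0.06, 0.12 and 0.06. Among 31 immediate-early and ERK output genes, with a median of 0.05, 20 lay above 0 and 11 below, where 5346 of all 11940 genes lay above 0. The transcription factor ATF3 was the highest at 0.30 with overlapping arrays. The phosphatase DUSP1 was at -0.30 and JUN, a subunit of AP-1 factors, at -0.33, where JUN's other probe sets gave -0.07 and 0.03. In all, 17 of the 865 genes in the lists (1.97%) had an unadjusted p under 0.05, against 1.92% of all genes.

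Mitotic genes had no called member. Of 38 measured G2/M genes 26 lay below 0 and 12 above, where 6594 of all 11940 genes lay below and 5346 above. The list had a median of -0.05, the lowest of the 31 lists. In 9 members (23.7%) every Luc array lay below every GFP array, where 5.88% of all genes did so. They were BUB3, CCNB1, CCNB2, ECT2, HMMR, KIF2C, TOP2A, TTK and UBE2C. With median centring the count was 4, and with quantile normalization 6. Under those scalings 486 and 618 of all 11940 genes had every Luc array below every GFP array. CCNB2, a B-type cyclin, was at 11.29, 11.21 and 11.14 with GFP and at 11.02, 10.97 and 10.97 with Luc (-0.22 ± 0.10, SE, unadjusted p = 0.041). TOP2A, the topoisomerase that separates sister chromatids, was at 10.85, 10.68 and 10.83 with GFP and at 10.47, 10.61 and 10.44 with Luc (-0.28 ± 0.15), and its second probe set gave -0.29. Genes of G1/S and DNA replication, 41 measured, had a median of -0.01. In 0 of them were the 2 groups apart in either direction, against 9.46% of all genes.

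Several splicing-related genes had the opposite order, again without a call. The list of SR proteins, splicing kinases and nuclear speckle genes was written knowing that some of its members had fallen with the JAK2 hairpins on these arrays, so it is no independent choice. It had 34 measured members with a median of 0.02, 22 above 0 and 12 below. In 7 (20.6%) every Luc array lay above every GFP array, where 3.58% of all genes did so. This count was 9 with median centring and 10 with quantile normalization, where 602 and 618 of all 11940 genes did so. CCNL2, an L-type cyclin of nuclear speckles, was at 8.14, 7.98 and 7.96 with GFP and at 8.33, 8.56 and 8.57 with Luc (0.46 ± 0.14, SE, unadjusted p = 0.0063). CLK1, a kinase that phosphorylates SR proteins, was at 6.97, 7.04 and 6.69 with GFP and at 7.10, 7.35 and 7.19 with Luc (0.32 ± 0.14). The others were RSRP1, CCNL1 (0.26), PNISR (0.24), SRRM2 (0.22) and SRSF10 (0.21), and LUC7L and RBM25 had all Luc arrays below all GFP arrays. Averaged over the 34 members, the level was 10.75, 10.69 and 10.68 on the GFP arrays and 10.75, 10.79 and 10.79 on the Luc arrays. GFP replicate 1 and Luc replicate 1 thus had the same mean to 2 decimals. Long noncoding and snoRNA host transcripts, also listed with those earlier results known, had 6 measured members, all above 0. Their median was 0.21, the highest of the 31 lists and the only one beyond 0.1, with SNHG20 at 0.26, SNHG3 at 0.17, TUG1 at 0.07 and MEG3 at 0.00 beside LINC00680 and NEAT1.

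**Figure D4:**
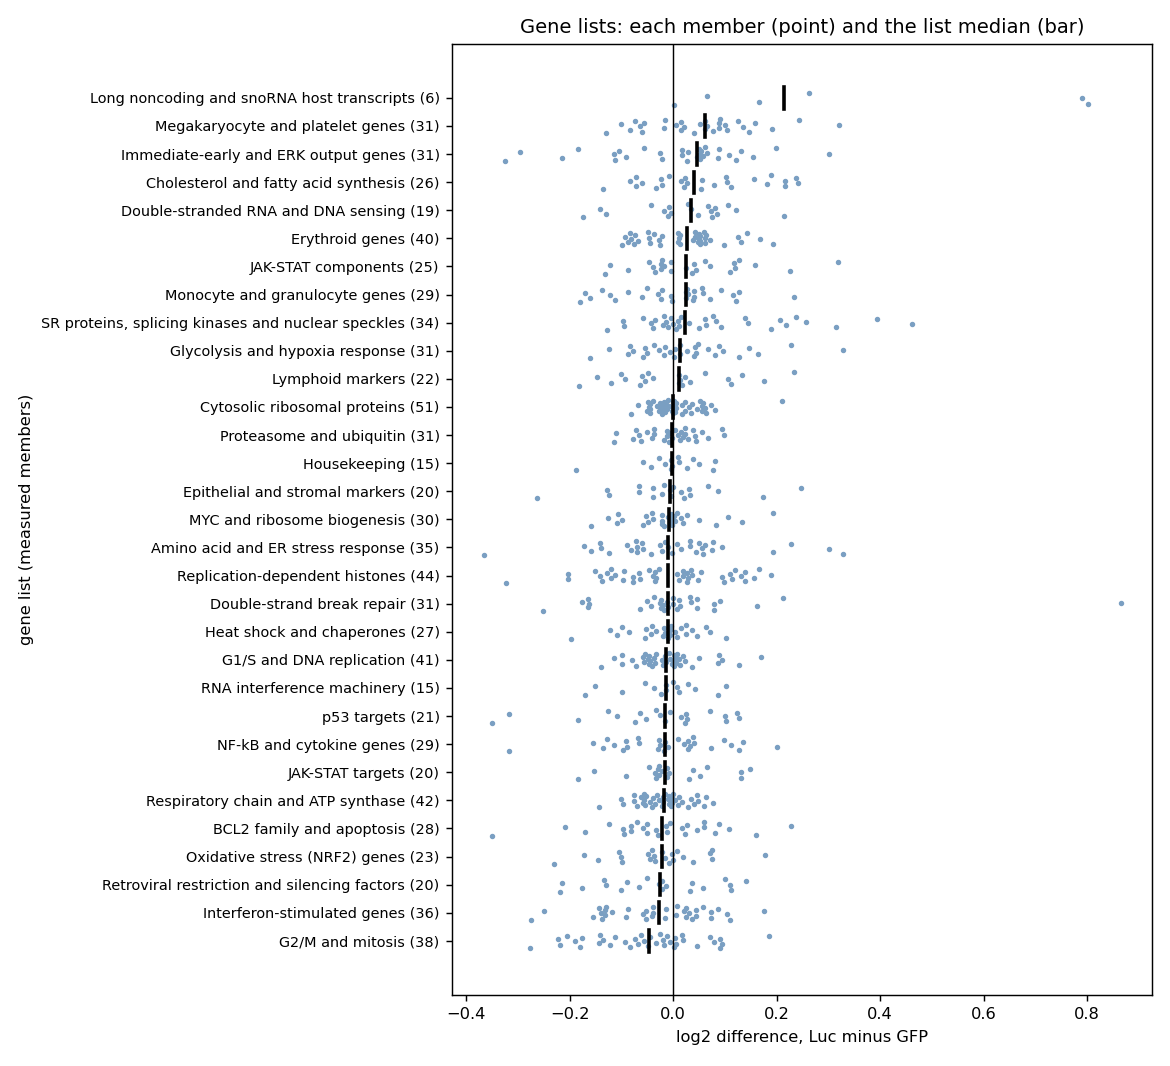
Log2 difference, Luc minus GFP, of every measured member (points) of the 31 gene lists, with each list's median (bar) and number of measured members. Medians run from -0.05 for G2/M and mitosis to 0.21 for long noncoding and snoRNA host transcripts, and 30 of the 31 lie within 0.1 of 0.

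How much the choice of control moved the measured effect of the JAK2 hairpins was then read gene by gene. A hairpin's difference from GFP minus its difference from Luc is the Luc minus GFP difference itself, so the leading genes must part here, and the values are given side by side without a test of the gap. For JAK2, Jak2-9 left 60.2% of the GFP level (-0.73, limma adjusted p = 0.0417) and 58.5% of the Luc level (-0.77, adjusted p = 0.0196). Jak2-10 left 67.9% of the GFP level (-0.56, adjusted p = 0.449) and 66.1% of the Luc level (-0.60, adjusted p = 0.155). For each hairpin the 2 estimates differed by 0.04, less than the SE of 0.16.

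For the leading genes higher in Luc the 2 values lay further apart. POLQ fell with Jak2-9 to 24.1% of GFP (-2.05) and 13.2% of Luc (-2.92). With Jak2-10 its differences were -1.97 and -2.83. CEP152 fell with Jak2-9 to 35.5% of GFP and 22.5% of Luc, and with Jak2-10 to 56.6% and 35.8%. RSRP1 fell with Jak2-9 to 61.8% of GFP and 47.0% of Luc, and with Jak2-10 to 68.1% and 51.8%. These 3 genes were called against either control with either hairpin.

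Several other genes were called against Luc but not against GFP; the gap itself is the Luc minus GFP difference, which passed for none of them (adjusted p of 0.245 or higher). LRRC37A had differences of -0.62 (limma adjusted p = 0.0563) and -0.66 (0.137) from GFP with Jak2-9 and Jak2-10, which missed the threshold, and of -1.43 (6.22e-05) and -1.47 (0.000114) from Luc, which passed. For NEAT1 the differences from GFP were -0.66 (adjusted p = 0.159) and -0.58 (0.945), and those from Luc -1.45 (0.00176) and -1.37 (0.00534). HCRP1, RUFY2 and KLHL24 were likewise called with both hairpins against Luc and with neither against GFP. Some of these genes were dim. With Jak2-9 and Jak2-10 the means were 4.37 and 4.45 for NEAT1, 4.57 and 4.53 for LRRC37A, and 4.35 and 4.73 for RUFY2. These lie in or near the plant probe set range of 4.19 to 4.50. The GFP means were 5.02, 5.19 and 4.97, which left little room to read a larger fall from GFP. KLHL20 was at GFP level with Jak2-9 (99.1%) and at 116% of GFP with Jak2-10, so that its call with Jak2-9 against Luc (-0.59, adjusted p = 0.00562) came with a difference from GFP of -0.01. Of the 10 genes higher in Luc, 9 were called in Jak2-9 minus Luc and 3 in Jak2-9 minus GFP, and 8 in Jak2-10 minus Luc and 3 in Jak2-10 minus GFP. Of the 10 lower in Luc, 0 were called in any of these 4 comparisons. Over all genes the shares called higher and lower were 0.486% and 1.16% for Jak2-9 minus Luc, 0.184% and 0.645% for Jak2-9 minus GFP, 0.0251% and 0.662% for Jak2-10 minus Luc, and 0% and 0.142% for Jak2-10 minus GFP.

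Both sets of leading genes were chosen by their Luc minus GFP values, which shapes where the hairpin groups fall beside them, so the following counts are a description. In 8 of the 10 genes higher in Luc, both hairpin means lay below the GFP mean as well, as they did in 8 of the 10 genes lower in Luc and in 27.0% of all genes. In 6 of the 10 higher in Luc all 6 hairpin arrays were below all 3 GFP arrays, against 2.64% of all genes. In 8 of the 10 genes lower in Luc, both hairpin means lay between the Luc and GFP means, against 7.86% of all genes. For CYP4F12 both hairpin means differed from Luc by 0.04, and from GFP by -0.41 and -0.42. For scale, the median absolute difference over all genes was 0.07 between the controls, 0.135 and 0.137 for Jak2-9 against GFP and Luc, and 0.0810 and 0.0797 for Jak2-10 against GFP and Luc.

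**Figure D5:**
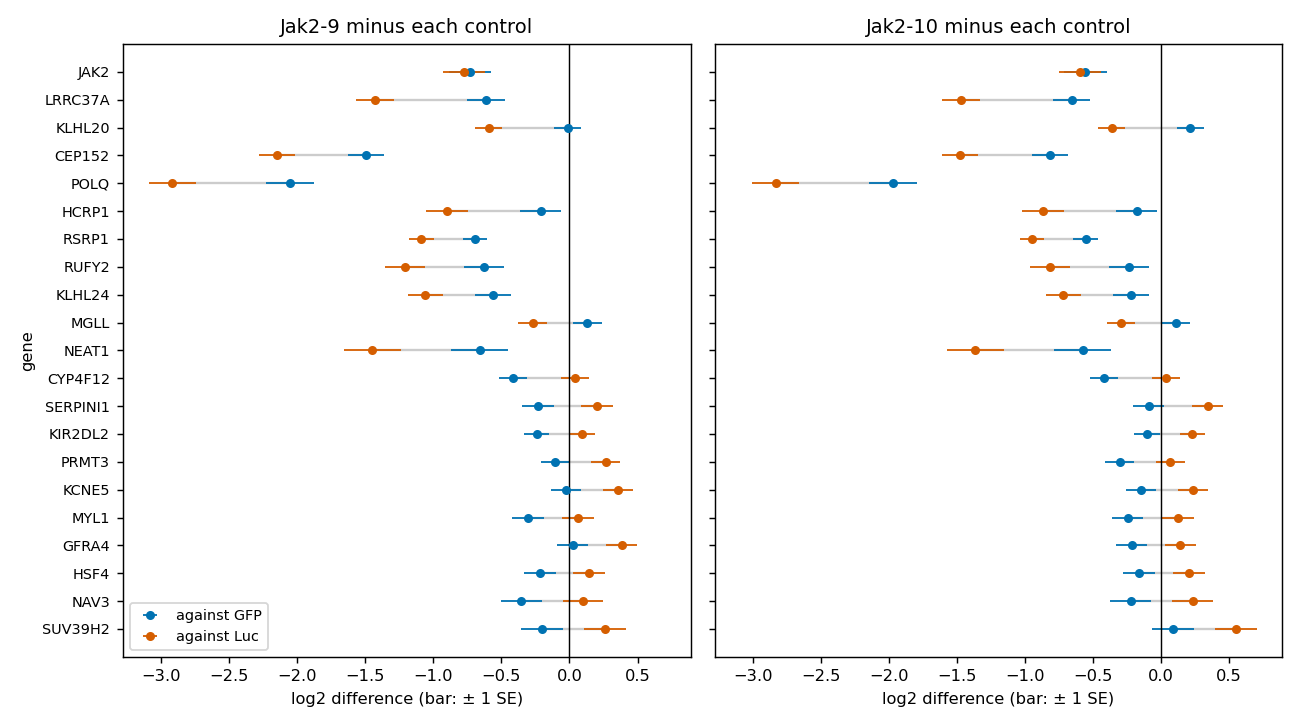
Log2 difference of each JAK2 hairpin from GFP and from Luc (points, with bars of 1 SE from the limma fit) for JAK2 and the 20 genes of lowest p between the controls. The 2 points lie almost together for JAK2, while for POLQ they are 0.86 apart.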

How the data were processed

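The deposited table holds linear intensity, 1 value per probe set on each array. RMA was the method per the submitters' processing notes, its version not being given in the sources used here. It normalizes arrays to a like distribution and compresses differences of dim probe sets. Median intensity was 44.9 to 49.1 over the 12 arrays; precision is limited by the number of arrays. Log2 was taken with no pseudocount. After leaving out 524 control probe sets, 19415 of 22930 had 1 gene symbol in the platform annotation, 125 several and 2866 none listed here; each of 11940 genes was read at its brightest probe set.

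Limma 3.58.1 (R 4.3.3; lmFit, eBayes) fitted 4 group means over 12 arrays, with Benjamini-Hochberg adjustment over all genes at 0.05; the script was tested on simulated data. Control probe sets were compared by exact two-sided permutation (Python 3.11.15, scipy 1.17.1), 20 values in all. The plan named JAK2, 10 genes of lowest p per direction, and the 2 members of lowest p of each list. Not all of these list members are given in the text. Other members stand for a list's extremes or were chosen after their values were seen. The members and lists were chosen with earlier results of these data known. No genome build is named, so no coordinates are given.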

Additional observations from a re-analysis of the deposited data

How the results depend on the processing

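The count of genes called between Luc and GFP, 0 in the fit over all arrays, was 2 with array weights (LRRC37A and KLHL20, both higher in Luc) and ranged from 0 to 1 on leaving out single arrays: POLQ without GFP replicate 1, LRRC37A without Luc replicate 1, each higher in Luc. POLQ is also the 1 gene called in the lists then (range 0 to 1). The count was 0 with quantile normalization, median centring, the dimmest 30% of genes removed, probe sets of a gene averaged or taken singly, an intensity trend, a robust prior, and the 6 control arrays alone. Genes at an unadjusted p under 0.05 numbered 229, against 136 without the dimmest 30% of genes, 561 of 22406 probe sets taken singly, 800 with array weights and 595 in the 6-array fit. The sign turned for JAK2 without GFP replicate 2 (-0.020; range over single arrays left out -0.020 to 0.12), for SETDB1 (-0.18, or 0.084 with the mean of its probe sets), for THBS1 (0.16, or -0.0026 with that mean) and for the GAPDH 3' minus 5' difference (-0.02, or 0.0029 without Luc replicate 2; range -0.049 to 0.0029); the cause was not tested. List medians moved by less than their spread in 635 of 651 refits. The scalings of the counts of arrays without overlap were chosen after seeing the data.

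Whether equal replicate numbers pair the control arrays is not settled by the values. Deviations of same-numbered arrays from their group means correlated at 0.181, 0.0139 and 0.0667. Those of differently numbered arrays correlated at -0.124, -0.0726, -0.00848, -0.00555, -0.147 and 0.0937. The last value is that of GFP replicate 3 with Luc replicate 2, its best match. With the replicate block 0 genes were called and 242 had an unadjusted p under 0.05.

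With 3 arrays per group and a spread shared by all 4 groups, differences under about 0.26 lie within the median gene's 95% interval. In the fit of the 6 control arrays alone that interval extended 0.20 to either side. There the interval lay within 1.5-fold for 98.5% of genes. Detection calls were not used here, and 2275 genes (19.1%) were at or below the highest plant probe set, where a difference may be background. All 20 control probe set values overlapped between the groups, with exact permutation p of 0.2 or more (adjusted 0.8 or more).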

Other observations

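Among RNA quality measures, the GAPDH 3' minus 5' difference averaged -0.03 with GFP and -0.05 with Luc (exact two-sided permutation p = 0.5, n = 3 each), and that of beta-actin 0.31 and 0.23 (exact p = 0.4). The mean of the 18S ribosomal RNA probe sets was 10.33 with GFP and 9.98 with Luc (exact permutation p = 0.3). It ran from 9.86 to 10.71 among the GFP arrays and from 9.67 to 10.22 among the Luc arrays. The Alu probe set, 14.50 to 14.68 over the 6 control arrays, was at 13.94 to 14.15 on the 6 JAK2 hairpin arrays.

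SETDB1, a histone methyltransferase that silences retroviral sequence, was read with opposite signs by its probe sets. The brighter gave -0.18 and the other 0.34 for Luc minus GFP (unadjusted p = 0.11 and 0.0091, limma), and neither passed adjustment over all probe sets.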
